A study of Mus musculus with 30 samples.

Results

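Cholesterol synthesis, transport and regulator genes are described here across 30 hippocampi of adult C57 BL/6J mice that lived alone (SI, social isolation) or in groups (GH, group-housed). The set holds 33 genes chosen by name: 17 enzymes of the synthesis pathway, 5 genes of the SREBP switch that controls it, 3 lipoprotein receptors, 3 efflux genes, 3 genes of intracellular handling and the 2 LXR receptors. Of these, 32 were matched to a row among the 17477 genes of the deposited count table, Msmo1 through its older symbol Sc4mol, while the expression of Hmgcs1 was not analysed here. All 32 passed the filter on low counts in every comparison. The set and the further gene lists were chosen with earlier results of these data known. Their counts beside the shares of all genes are therefore a description and not a test.

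There were 8 SI females, 7 GH females, 7 SI males and 8 GH males, and each mouse gave 1 library of polyA-selected RNA from whole hippocampus. The SI mice were caged singly and the GH mice with cage mates from weaning until they were killed as adults; the labels name no transgene and no drug. The question was whether isolation changed the hippocampal transcriptome, with each sex tested on its own. Because RNA came from a whole region, fewer cells of a type and less RNA per cell cannot be told apart.

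Cholesterol does not enter the brain from blood lipoproteins, so brain cells make their own from acetyl-CoA through mevalonate, farnesyl pyrophosphate, squalene and lanosterol. Transcription of the enzymes is driven by SREBP proteins: SCAP carries them to the Golgi for cleavage when sterol is scarce, and INSIG proteins hold SCAP back when it is plentiful. Astrocytes supply neurons through lipoproteins, oligodendrocytes place large amounts in myelin, ABC transporters export cholesterol, and neurons dispose of it by hydroxylation with the enzyme encoded by Cyp46a1. Oxysterols activate the LXR receptors, which in turn raise Abca1, Abcg1 and Srebf1.

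The 4 genes of the set that passed the test in females were Lss, Srebf1, Insig1 and Npc2, and the 250 bases before a transcript start of each are printed because these are the genes on which the comparison of housing groups turns. The bases are from RefSeq on GRCm38.p6 and are read along the gene's strand, with CCAAT boxes (CCAAT) and GC boxes (GGGCGG), on either strand, in capitals. These are binding sites of NF-Y and Sp1, which act beside SREBP at sterol-regulated promoters. Lss lies at chr10:76531355-76531604 (plus strand), Insig1 at chr5:28071162-28071411 (plus strand), Npc2 at chr12:84773113-84773362 (minus strand) and the start shown for Srebf1 at chr11:60210472-60210721 (minus strand). Srebf1 has 3 listed starts, and the one shown was picked for its letters from 2 starts with a CCAAT box.
Lss: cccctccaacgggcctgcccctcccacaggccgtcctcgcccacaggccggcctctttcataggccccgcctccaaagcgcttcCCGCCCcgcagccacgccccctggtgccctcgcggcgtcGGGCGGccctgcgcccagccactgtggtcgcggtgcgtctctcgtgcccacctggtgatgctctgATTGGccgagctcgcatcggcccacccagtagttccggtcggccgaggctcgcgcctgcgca
Insig1: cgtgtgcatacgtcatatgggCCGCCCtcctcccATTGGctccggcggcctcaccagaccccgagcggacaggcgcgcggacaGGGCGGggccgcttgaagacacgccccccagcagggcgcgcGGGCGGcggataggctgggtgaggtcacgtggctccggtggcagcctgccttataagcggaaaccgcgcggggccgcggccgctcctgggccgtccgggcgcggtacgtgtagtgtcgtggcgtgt
Npc2: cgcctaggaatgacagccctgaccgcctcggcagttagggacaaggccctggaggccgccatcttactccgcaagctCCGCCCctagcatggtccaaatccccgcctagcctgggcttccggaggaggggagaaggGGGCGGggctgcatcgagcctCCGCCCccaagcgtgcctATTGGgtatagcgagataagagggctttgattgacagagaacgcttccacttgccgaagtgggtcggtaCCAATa
Srebf1: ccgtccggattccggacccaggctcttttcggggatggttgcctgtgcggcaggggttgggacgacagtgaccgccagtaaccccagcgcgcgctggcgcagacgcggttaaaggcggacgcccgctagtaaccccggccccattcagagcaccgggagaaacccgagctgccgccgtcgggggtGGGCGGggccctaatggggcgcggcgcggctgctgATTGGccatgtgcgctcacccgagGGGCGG

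Within 250 bases before and 50 after a start, the CCAAT letters were present for 14 of the 14 synthesis genes that had a promoter entry and for 41.1% of 27025 genes, and for 22 of the 28 genes of the whole set with an entry. The GC box was present for 13 of the 14 synthesis genes, for 24 of the 28 and for 38.2% of all genes. The sterol regulatory element, searched as TCACNCCAC, was found in 1 of the 28, Hmgcs1, and for 1.44% of 27025 genes. The LXR element, searched as a direct repeat of AGGTCA with 4 free bases between the copies, was found in 0 of the 28 and for 0.0148% of genes. Both strands were searched, and boxes that overlap were counted separately. A match is a description of the window and was not tested for binding.

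Total counts per mouse lay between 18809307 and 100844898. Counts of the set were at least 174 in every mouse except for Nr1h3, whose lowest count was 39 and which was therefore the least precisely counted. SI males 25, 33 and 39 stood apart from the other 27 mice. The slope of their centred log2 CPM on log2 transcript length was between -0.476 and -0.365, against -0.13 to 0.18 in the others, and on the leading axis of a principal component analysis over males (54.2% of variance) they lay between -103.3 and -63.44 while the other males lay between -0.7478 and 37.56. The main male results of the set and of the fatty acid and astrocyte lists are also given without them. Male results of the other lists are given with all males only. A digit in the sample titles, whose meaning is not stated, was 3 for none of the GH females and 4 for none of the SI males. Hippocampal neuron markers, Prox1, C1ql2, Fibcd1 and Wfs1 among them, had counts in every mouse.

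Levels are given as normalised read counts (CPM, scaled to library totals adjusted by TMM factors), and as CPM per kb of transcript where genes are compared with each other. On the per-kb scale Cyp46a1 was at 62.0 ± 6.7 (SD, n = 7) in GH females and had the highest mean over the 4 groups, 66.2. Srebf2, the SREBP form that mainly serves cholesterol synthesis, followed at 49.1 and Fdps, which makes farnesyl pyrophosphate, at 47.6. The order of these last genes differed between groups, since Fdps was at 40.5 and Srebf2 at 53.1 in GH females but at 65.05 and 43.1 in SI males. Mean levels of the next 4 genes, Msmo1, Insig1, Sc5d and Npc2, lay between 32.6 and 27.3, and in GH females the means of neighbours in this order differed by less than the sum of their SDs.

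At the low end were Nr1h3, the LXR alpha receptor, at 1.77, Abca1, the main exporter onto lipoproteins, at 2.86, Hsd17b7, a sterol reductase, at 3.56, and Lss, lanosterol synthase, at 5.65 CPM per kb as means over the 4 groups. The other LXR receptor, Nr1h2, was at 25.8. Lss thus had the 2nd lowest level among the 16 measured synthesis genes, and enzymes of one pathway spanned from 3.56 for Hsd17b7 to 47.6 for Fdps. The widest error bars in the plot of levels belong to SI males. This did not hold for every gene, since Insig1 had an SD of 4.757 in GH males and 1.69 in SI males.

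**Figure D1:**
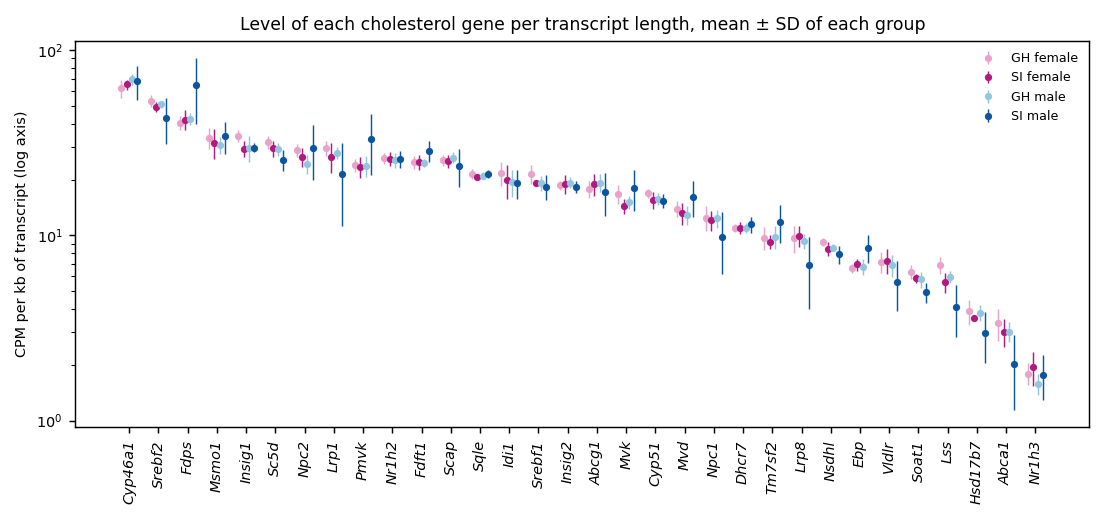
Level of each of the 32 measured genes in CPM per kb of transcript on a log axis, as mean ± SD of 7 GH females, 8 SI females, 8 GH males and 7 SI males, ordered by the mean over the 4 groups. The levels run from 66.2 for Cyp46a1 to 1.77 for Nr1h3. The widest bars of the plot belong to SI males, but some genes, Insig1 among them, have a wider bar in another group.

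In females, 4 of the 32 genes (12.5%) differed between SI and GH at an adjusted p under 0.05, and all 4 were lower in SI: Lss, Srebf1, Insig1 and Npc2. Across all 16026 genes tested 3.89% passed, 2.93% lower and 0.961% higher (edgeR's quasi-likelihood test with 3 surrogate variables and Benjamini-Hochberg adjustment). At an unadjusted p under 0.05 there were 9 of 32, all lower, against 20.2% of all genes and 11.0% lower. The fitted Log2FC (SI over GH) was below 0 for 23 of the 32 and for 47.2% of all genes, with a median of -0.06 against 0.01 over all genes.

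Lss closes squalene epoxide into lanosterol, the first sterol of the pathway. Its level ran from 27.9 to 36.8 CPM (median 32.45) in GH females and from 19 to 30.03 CPM (median 26.2) in SI females. All 8 SI females were below the GH median and 6 were below the lowest GH female, while the other 2 overlapped the GH range. The fitted difference was -0.26 (SE 0.0687, edgeR adjusted p = 0.0448), that is 16.4% lower in SI.

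Insig1 encodes the sterol-responsive anchor of SCAP in the endoplasmic reticulum and is itself a target of SREBP. It ran from 81.4 to 99.3 CPM (median 91.7) in GH females and from 66.3 to 87.8 CPM (median 77.45) in SI females. Again 6 of the 8 SI females were below every GH female. Its Log2FC was -0.22 (SE 0.0533, edgeR adjusted p = 0.0319), or 14.1% lower.

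Srebf1, which encodes the SREBP form that mainly drives fatty acid synthesis, ran from 79.1 to 105.8 CPM (median 93.2) in GH females and from 77.96 to 87.4 CPM (median 82.1) in SI females. The SI females were closely grouped, with an SD of 3.06 CPM against 10.7 CPM in GH females; all 8 were below the GH median but only 1 was below the lowest GH female. The Log2FC was -0.20 (SE 0.0483, edgeR adjusted p = 0.0280), or 13.2% lower. Srebf2 pointed the same way at -0.09 (SE 0.0423) without passing (edgeR adjusted p = 0.235), and Scap was at -0.02 and Insig2 at 0.03.

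Npc2 carries cholesterol out of lysosomes together with Npc1. In GH females it ran from 85.7 to 108.2 CPM (median 93.2) and in SI females from 66.9 to 99.3 CPM (median 88.0). Of the 8 SI females 4 were below every GH female, while 3 were above the GH median, so the groups overlapped. The Log2FC was -0.13 (SE 0.0338, edgeR adjusted p = 0.0489), and Npc1 stood at -0.06 and Soat1, which esterifies cholesterol for storage, at -0.09 without passing.

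**Figure D2:**
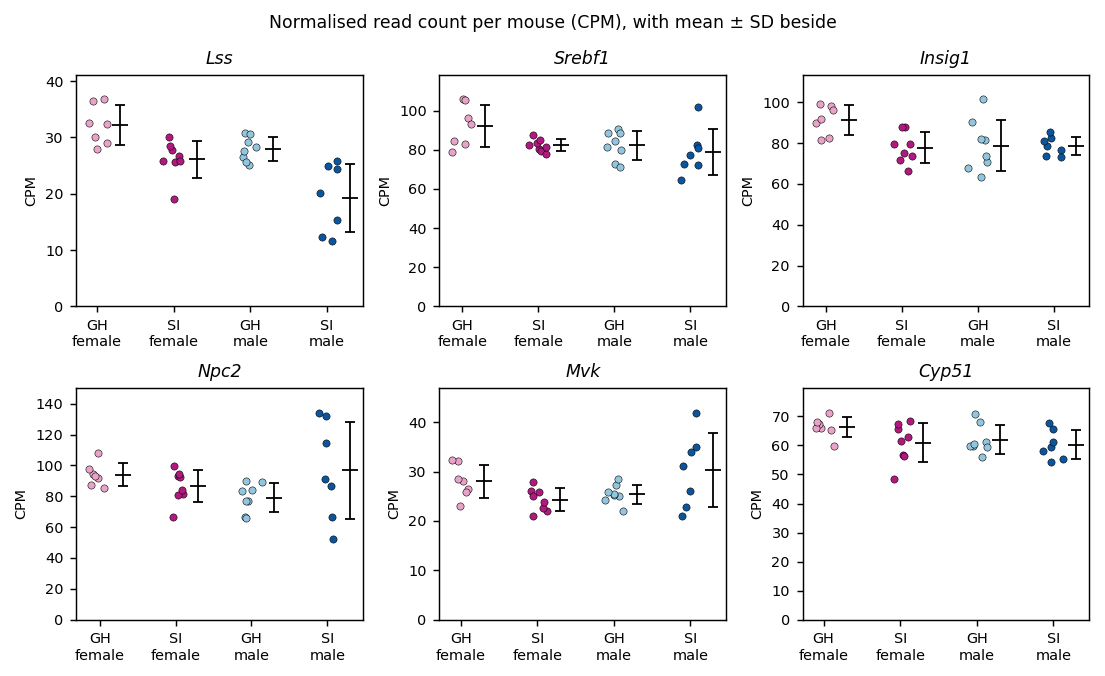
CPM of Lss, Srebf1, Insig1, Npc2, Mvk and Cyp51 in each mouse (points) of the 4 groups, with mean ± SD beside each group. For Lss and Insig1, 6 of 8 SI females lie below every GH female, and for Npc2 4 of 8 do; Lss is also low in SI males, with a mean of 19.2 CPM against 27.9 CPM in GH males.

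These calls depended on the adjustment for surrogate variables. Without them no gene passed (0 of 16026 by edgeR, 1875 at an unadjusted p under 0.05). The same was true with the title digit as a factor, a fit that also held no surrogate variables. The fitted values kept their sign. Without surrogate variables Lss was at -0.30, Insig1 at -0.23, Srebf1 at -0.17 and Npc2 at -0.12, and 22 of 32 genes were below 0. DESeq2 with the same surrogate variables passed 6 of the 32, adding Mvk and Cyp51, beside 7.87% of all genes. With each female left out in turn the share over all genes lay between 0.550% and 8.86%, and the count in the set between 0 and 5. That count was 0 without SI female 45, 49 or 63 or GH female 54, and 1 without SI female 68 or GH female 71. The gene that passed was Srebf1 without SI female 68 and Mvk without GH female 71. Over the 15 omissions, Npc2 stayed called in 3, Lss in 7, Insig1 in 8 and Srebf1 in 8.

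Of the 16 measured synthesis genes, 13 had a fitted value below 0 in females, against 47.2% of all genes, and 1 (6.25%) passed, near the 3.89% of all genes. The median was -0.07, against 0.01 over all genes. Next to Lss came Mvk, mevalonate kinase, at -0.18 (SE 0.0497, edgeR adjusted p = 0.0548) and Cyp51, which removes a methyl group from lanosterol, at -0.12 (SE 0.0336, edgeR adjusted p = 0.063). Mvk ran from 23.1 to 32.3 CPM (median 28.1) in GH females and from 20.9 to 27.8 CPM (median 24.5) in SI females, and all 8 SI females were below the GH median. Cyp51 ran from 59.9 to 71.3 CPM (median 66.2) in GH females and from 48.6 to 68.3 CPM (median 62.3) in SI females, with 3 SI females below the GH range.

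Further down the sterol branch, Nsdhl was at -0.12, Hsd17b7 at -0.11, Sc5d at -0.08, Msmo1 at -0.07, Tm7sf2 at -0.06 and Dhcr7 at -0.01. Upstream, the mevalonate decarboxylase Mvd was at -0.10, the isomerase Idi1 at -0.09 and Pmvk at -0.04. The squalene epoxidase Sqle was at -0.06, with all 8 SI females below the GH median. The 3 genes above 0 were Ebp at 0.05, Fdps at 0.03 and Fdft1, squalene synthase, at 0.01. None of these passed the test.

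Of the 6 uptake and efflux genes, 2 were below 0 in females, the median was 0.02 and 0 passed by edgeR or by DESeq2, with 1 at an unadjusted p under 0.05. Abca1 was that gene, at -0.16 (SE 0.0521, edgeR adjusted p = 0.101), running from 24.6 to 47.15 CPM (median 34.7) in GH females and from 20.6 to 36.7 CPM (median 30.4) in SI females. The groups overlapped, with 1 of 8 SI females below the GH range. Abcg1, which exports cholesterol to particles already carrying lipid, and Cyp46a1 were both at 0.06, and the receptors were at -0.14 (Lrp1), 0.03 (Lrp8) and 0.01 (Vldlr). The LXR receptors Nr1h2 and Nr1h3 were at -0.01 and 0.12.

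**Figure D3:**
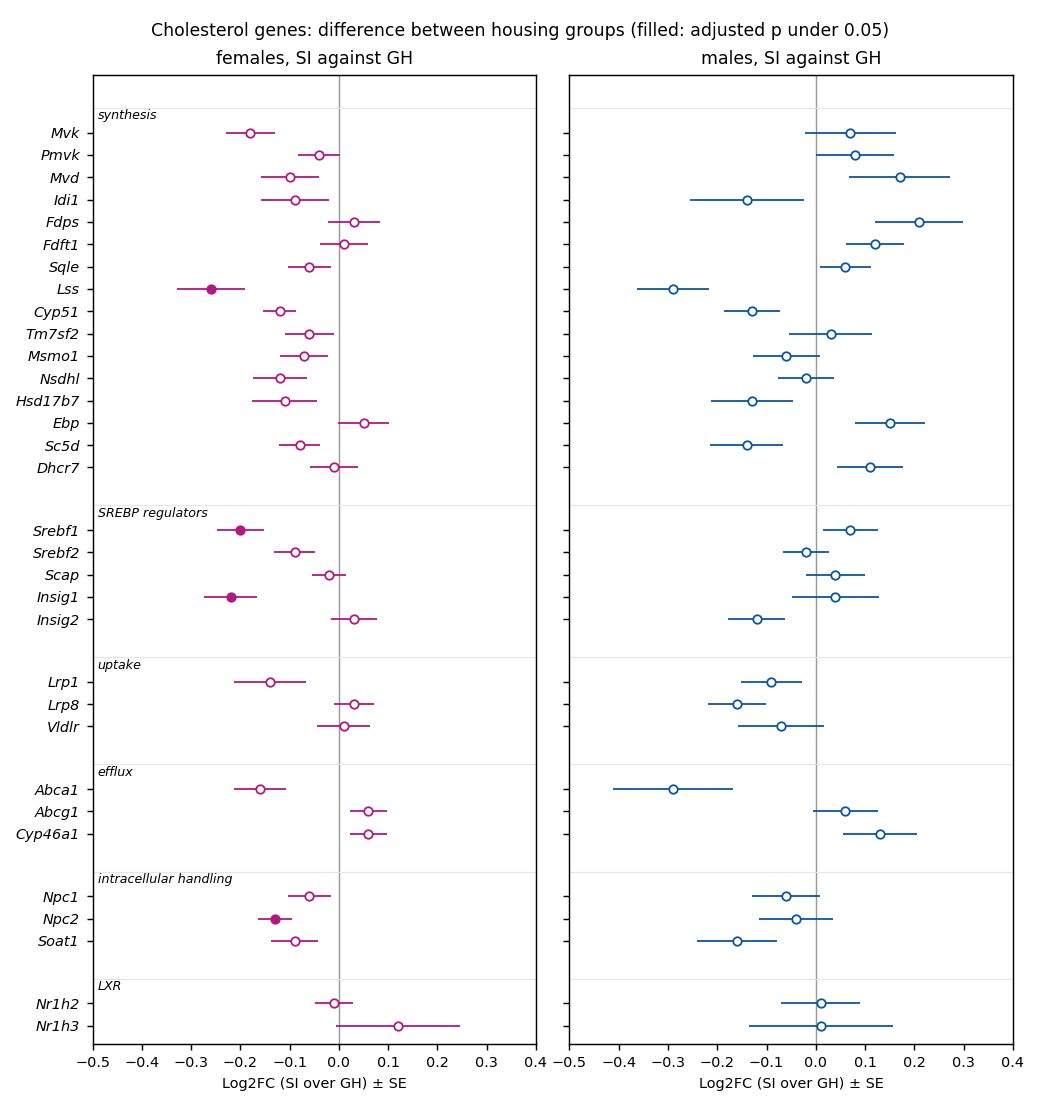
Fitted Log2FC (SI over GH) ± SE of the 32 genes by role in females and in males, with filled points at an adjusted p under 0.05. In females 13 of 16 synthesis genes lie left of 0 and 4 points are filled (Lss, Srebf1, Insig1, Npc2); in males 7 of 16 lie left of 0 and none is filled.

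In males, 0 of the 32 genes passed, and 0 of 15833 genes did (edgeR with 2 surrogate variables; 2060 genes, 13.0%, at an unadjusted p under 0.05). DESeq2 passed 44 genes, 0.278%, and 0 of the 32. At an unadjusted p under 0.05 there were 6 of the 32, and 5 of those were lower in SI, against 7.38% of all genes that were lower. The fitted values were below 0 for 16 of 32, against 50.7% of all genes. Without SI male 27 the count over all genes was 2414 and that of the set 8 (Abca1, Fdft1, Fdps, Lrp8, Lss, Mvd, Sc5d and Soat1), without SI male 38 they were 128 and 1 (Lss), and without SI males 25, 33 and 39 they were 1 and 0.

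Of the set, Lss had the smallest p in males. It ran from 25.1 to 30.7 CPM (median 27.9) in GH males and from 11.7 to 25.8 CPM (median 20.1) in SI males. All 7 SI males were below the GH median and 6 were below the lowest GH male. The Log2FC was -0.29 (SE 0.0732, edgeR adjusted p = 0.295), and it was -0.12 (SE 0.0565, edgeR adjusted p = 0.789) without SI males 25, 33 and 39.

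Abca1 was at -0.29 (SE 0.122), running from 26.3 to 36.2 CPM (median 29.65) in GH males and from 11.5 to 33.45 CPM (median 16.7) in SI males. Fdps was the one gene with a small unadjusted p that was higher in SI males, at 0.21 (SE 0.0894), from 48.8 to 59.7 CPM (median 51.7) in GH males and from 49.6 to 126.4 CPM (median 76.1) in SI males. Neither held its size without SI males 25, 33 and 39, where Abca1 was at -0.04 and Fdps turned to -0.04. Lrp8, a reelin and apolipoprotein receptor, was at -0.16, Cyp51 at -0.13 and Insig2 at -0.12 with all males and at -0.05, -0.08 and -0.06 without those 3.

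Synthesis and uptake plus efflux genes thus had medians of 0.05 and -0.08 in males, with 7 of 16 and 4 of 6 genes below 0. Without SI males 25, 33 and 39 the medians were -0.01 and -0.04. With all males but no surrogate variables they were 0.11 and -0.34. In that fit 10 of 16 synthesis genes were above 0 and 6 of 6 uptake and efflux genes below 0. The balance of the groups in each mouse was taken as the mean centred log2 CPM of the 16 synthesis genes minus that of the 6 uptake and efflux genes. It ran from -0.37 to 1.07 in SI males and from -0.43 to 0.07 in GH males, and the 3 highest values, 1.07, 0.99 and 0.80, were those of SI males 25, 33 and 39. The other 4 SI males lay between -0.37 and 0.18.

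Transcripts of the uptake and efflux genes are longer, with a median of 7299 bases and a maximum of 14888 for Lrp1, than those of the synthesis genes, with a median of 2208 and a maximum of 4667 for Lss. In females the balance ran from -0.26 to 0.35 in GH and from -0.61 to 0.30 in SI, and the highest value of each group, GH female 78 and SI female 53, was that of its library with the lowest length slope. The part of the length slope in these balances was not tested.

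**Figure D4:**
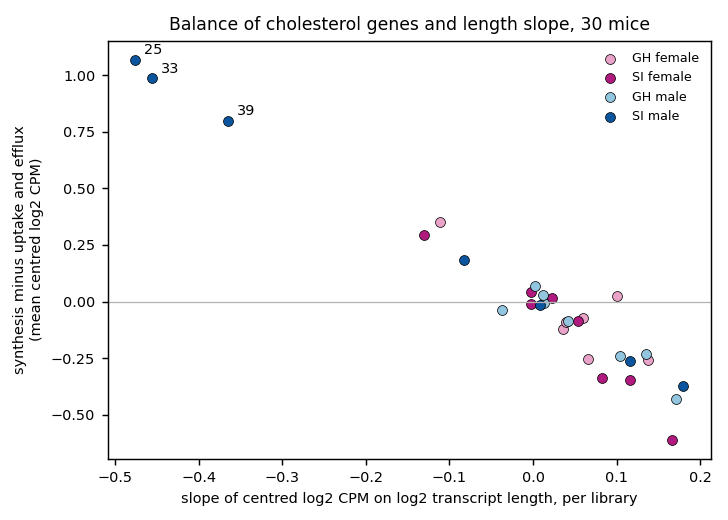
Balance of synthesis against uptake and efflux genes (difference of mean centred log2 CPM, y axis) against the slope of centred log2 CPM on log2 transcript length of the library (x axis) for each of the 30 mice, coloured by group. SI males 25, 33 and 39 lie at slopes of -0.476 to -0.365 and balances of 0.80 to 1.07, above every other mouse.

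Whether the response differed between the sexes was tested with the sex by housing interaction over all 30 mice. No gene of 16391 passed (edgeR, 0 of the 32; 1226 genes, 7.48%, at an unadjusted p under 0.05), and DESeq2 passed 8 genes and 0 of the 32. Srebf1 was the one gene of the set with an unadjusted p under 0.05, at -0.21 (SE 0.0677, edgeR adjusted p = 0.604), where 2.54% of all genes had such a p with a negative value. In the separate fits Srebf1 was at -0.20 in females and at 0.07 (SE 0.0556) in males, or 0.01 without SI males 25, 33 and 39. By CPM, before surrogate variables, 6 of the 7 SI males were below the GH male median. Insig1 had the same interaction value with a wider error, -0.21 (SE 0.117), while Lss, at -0.26 and -0.29 in the separate fits, had -0.03 (SE 0.0958). With all 30 mice, a difference between the sexes is therefore not shown for any of the 32. With SI male 7 left out, 385 of 16373 genes (2.35%) and 1 of the 32, Mvk, passed, and with SI male 27 left out 281 genes and 0 of the 32. The other omissions passed at most 5 genes.

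Among GH mice, Lss, Msmo1 and Npc2 were higher in females than in males and Cyp46a1 was lower, 4 of the 32 beside 6.31% of 16391 genes, 3.31% higher and 3.01% lower (edgeR with Benjamini-Hochberg adjustment). Npc2 had the largest of these differences at 0.24 (SE 0.0625, edgeR adjusted p = 0.025), with means of 94.0 ± 7.5 CPM (SD, n = 7) and 79.1 ± 9.3 CPM (SD, n = 8). Lss was at 0.21, Msmo1, a sterol methyl oxidase, at 0.19 and Cyp46a1 at -0.17. The GH females are also the controls of the female comparison, so Lss, Npc2 and the other values here are not independent of it. Insig1 at 0.21 and Srebf1 at 0.10 were also higher in GH females without passing (edgeR adjusted p = 0.0955 and 0.181). Mean CPM in SI females and GH males was 77.7 and 78.8 for Insig1 and 82.2 and 82.3 for Srebf1. Of the 12 fatty acid genes and 8 astrocyte markers described below, 5 and 3 were called higher in GH females, against 3.31% of all genes. The count of the set was 0 without surrogate variables and without SI males 25, 33 and 39. It lay between 0 and 9 with each mouse left out, and the 9, without SI male 8, stood beside 14.2% of all genes. Of the 30 omissions 19 moved it by over 1.5 times, and those of GH male 3 or 22 brought it to 0.

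Genes of fatty acid synthesis and desaturation are the textbook targets of SREBP-1, the product of Srebf1, and a list of 12 was described beside the set. The list was chosen with earlier results of these data known, so its counts beside the shares of all genes are a description. In females 7 of the 12 passed, all lower in SI, where 2.93% of all genes were called lower, and 10 of 12 were below 0, where 47.2% of all genes were. Their median was -0.16. These were Fads1 and Fads2, the desaturases of polyunsaturated fatty acids, at -0.25 (SE 0.0431, edgeR adjusted p = 0.00703) and -0.26, Scd2 and Scd1, which make monounsaturated fatty acids, at -0.24 (SE 0.0449, edgeR adjusted p = 0.00953) and -0.28, the fatty acid synthase Fasn at -0.20, Gpam, which starts glycerolipid synthesis, at -0.19, and the acetyl-CoA carboxylase Acaca at -0.13. Scd1 and Scd2 are close paralogs, and reads common to both could be split between them.

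Fads1 ran from 296.4 to 374.7 CPM (median 338) in GH females and from 224.5 to 322.4 CPM (median 279.4) in SI females, with 6 of 8 SI females below every GH female. Scd2 ran from 1446 to 1801 CPM (median 1683) and from 1215 to 1467 CPM (median 1362), with 7 of 8 below. The 2 genes above 0 were Acly at 0.01 and Elovl6 at 0.06. In males 11 of the 12 were below 0 with a median of -0.15, and 0 passed by edgeR or DESeq2. At an unadjusted p under 0.05 there were 4 of the 12, where 13.0% of all genes had such a p. Without SI males 25, 33 and 39 the median was -0.04 with 9 of 12 below 0. The female count was 0 without surrogate variables, where 9 of the 12 had an unadjusted p under 0.05, and lay between 1 and 8 with each female left out. It was 1 without SI female 68, 2 without SI female 63, and 3 without SI female 45, 49 or 73 or GH female 48 or 54.

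**Figure D5:**
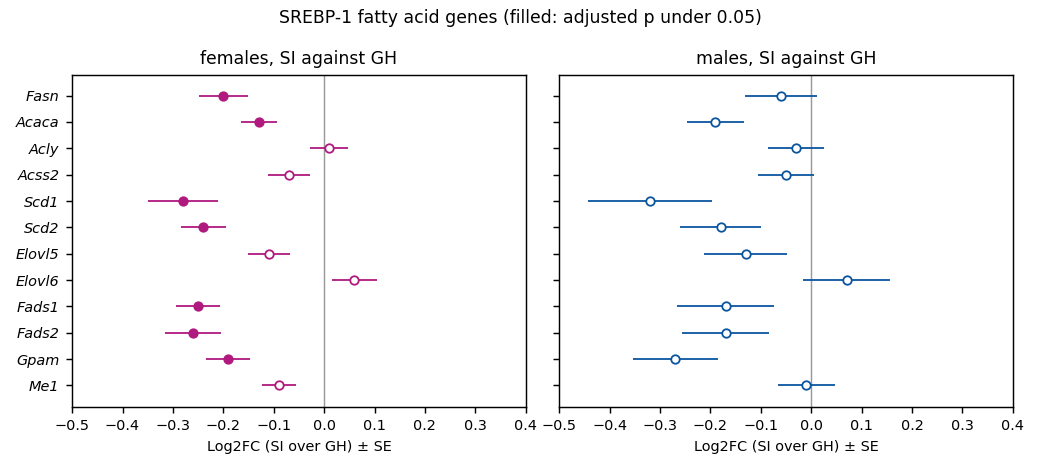
Fitted Log2FC (SI over GH) ± SE of 12 SREBP-1 fatty acid genes in females and in males, with filled points at an adjusted p under 0.05. In females 7 points are filled and 10 lie left of 0; in males none is filled and 11 lie left of 0.

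Of 31 further genes of sterol synthesis, transport and storage, 1 (3.23%) passed in females, near the 3.89% of all genes: Rxra, which encodes the dimer partner of the LXR receptors, at -0.18 (SE 0.0441, edgeR adjusted p = 0.0361), with 7 of 8 SI females below every GH female. DESeq2 passed 2, adding Stard3. Stard3, a late endosomal sterol carrier, was at 0.18 (edgeR adjusted p = 0.0603), and the median was -0.00. In males 0 of the 31 passed by edgeR or DESeq2. At an unadjusted p under 0.05 there were 4 of the 31, near the 13.0% of all genes. The smallest p belonged to Pltp, a phospholipid transfer protein, at 0.23. The isoprenoid branch, which turns mevalonate products into protein prenyl groups, dolichol and ubiquinone, had 0 of 13 passing by edgeR or DESeq2 in either sex and 1 at an unadjusted p under 0.05 in each, with medians of -0.01 in females and 0.02 in males. The smallest p of the 13 belonged to Rabggta, at 0.09, in females and to Pdss2, at 0.15, in males.

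Astrocyte markers were mostly below 0 in both sexes. In females all 8 were below 0, against 47.2% of all genes, with a median of -0.22. Of these 4 passed, against 3.89%: Slc1a2 at -0.28, Aldh1l1 at -0.27, Slc1a3 at -0.24 and Aldoc at -0.22. In males 7 of 8 were below 0, against 50.7% of all genes, with a median of -0.19 and 0 passing. Without SI males 25, 33 and 39 the male median was -0.02, with 5 of 8 below 0. The summed level of the markers was 5420 to 7334 CPM in GH females and 4470 to 6317 CPM in SI females, against 4903 to 6744 CPM in GH males and 3583 to 6008 CPM in SI males. Their count of 4 fell to 0 without SI female 45 or 63, to 1 without SI female 68 and to 2 without SI female 73 or GH female 54. No astrocyte marker was at 0 in any mouse, and the part of astrocyte content in the calls of the 4 cholesterol genes was not tested.

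Of the other marker lists in females, oligodendrocyte genes had 9 of 10 below 0, at 3737 to 5771 CPM in GH and 3669 to 4996 CPM in SI. Precursor genes had 3 of 4 and microglial genes 6 of 6 below 0, and in each of these 3 lists 0 passed by edgeR, with 1 at an unadjusted p under 0.05; DESeq2 passed Mobp and Pdgfra. All 5 endothelial markers were above 0, with Flt1 passing at 0.14. All 10 choroid plexus markers were above 0 too, with 0 passing by edgeR or DESeq2 and 2 at an unadjusted p under 0.05, and their sum ran from 119.7 to 622.3 CPM in GH and from 184.9 to 470.7 CPM in SI. Among 10 hippocampal neuron markers 8 were above 0 and 1, Camk2a, passed, at -0.24. Of all genes in females 47.2% were below 0, 3.89% passed by edgeR and 7.87% by DESeq2. An unadjusted p under 0.05 was held by 20.2%, which the 2 of 10 choroid plexus markers were near. In males 0 markers of any list passed by edgeR or DESeq2. At an unadjusted p under 0.05 there were 4 of the 10 neuron markers, 3 higher and 1 lower, and at most 1 of each other list. The share over all genes in males was 13.0%. Of the 10 choroid plexus markers 9 were below 0 in males.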

How the data were processed

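RNA was extracted from frozen hippocampus, and polyA-selected paired-end libraries were sequenced and deposited by the authors as a table of raw counts per Ensembl gene for 30 mice; the submitters' processing notes name Trimmomatic 0.39, Salmon 1.8.0 and DESeq2 1.24.0 with build GRCm39. No row of the deposited counts sums to under 100 over all mice. IDs were paired with symbols for 16439 genes (94.1%). Length and GC content of the longest transcript, from the GENCODE vM1 annotation on NCBIM37, were found for 15964 genes (91.3%) and for all 32 matched genes of the set, and no coordinate of that build is printed. Promoters were from RefSeq on GRCm38.p6.

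Each sex was fitted on its own with edgeR 4.0.16 (glmQLFit, glmQLFTest, TMM, filterByExpr with a minimum count of 10 and total of 15) in R 4.3.3, with surrogate variables from svaseq (sva 3.50.0, 20 permutations). The interaction and the contrast of GH females with GH males used 1 fit of all 30 mice. The calling threshold was 0.05 for p adjusted by Benjamini-Hochberg across the whole tested table. CPM values use TMM factors of all 30 mice. Scripts were tested on simulated data. The simulated counts held no hidden factor, so they did not check the adjustment for surrogate variables. Their planted differences were larger than those of the called genes. The p-values measure the spread between mice that is left after the surrogate variables, which were estimated from the same counts. Each mouse counts as 1 replicate. For Npc2 in females the SE was 0.0338 with surrogate variables and 0.0733 without them. Cage mates among the GH mice are not identified in the labels. Alternatives were DESeq2 1.42.0, no surrogate variables, other size factors, no filter and removal of a length and GC trend per library. Further ones were the title digit as a factor in place of surrogate variables, and all groups in 1 fit. Each mouse was also left out in turn, as were SI males 25, 33 and 39 together. The same alternatives for the fatty acid and astrocyte lists were added after seeing the data. Genes named from the other lists are those called in either sex, otherwise those with the smallest p. The members and lists were chosen with earlier results of these data known.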

Additional observations from a re-analysis of the deposited data

Results flagged for a closer look

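Within each group the highest and lowest CPM of each of the 32 genes were compared with its nearest neighbour by Dixon's test at the 95% level, which chance passes in about 1 in 20 groups. Of 128 groups 4 passed, where 6.4 would be expected by chance. Lss was low in SI female 53, at 19 CPM with the next value at 25.67 CPM. Srebf2 was high in SI female 45, at 279.8 CPM with the next at 249.4 CPM. GH male 22 was high for Srebf2, at 277.6 CPM with the next at 258.9 CPM, and for Abcg1, at 85.99 CPM with the next at 72.75 CPM. SI female 53 has the lowest length slope of the females, -0.13, and SI female 45 and GH male 22 the highest of their groups, 0.166 and 0.171; the part of this slope in the 4 values was not tested.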

How the results depend on the processing

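The 4 genes called in females stayed below 0 under every alternative run, but the calls did not all hold. The count of all genes called in females, 624, became 0 without surrogate variables and with the title digit as a factor in their place. It was 1262 with DESeq2 and 1512 with the length and GC trend removed, and lay between 88 and 1427 with each female left out. The count in the set, 4 beside 3.89% of all genes, was 6 with DESeq2 (7.87%) and 6 with the trend removed (9.43%). It was 5 with other size factors (4.02%) and 3 without a filter (4.18%). It became 0, 0 and 2 (Lss and Srebf1) without surrogate variables, with the digit and with all 4 groups in 1 fit, and lay between 0 and 5 with a female left out. Besides those named in the report, it was 2 without GH female 48 or 79 or SI female 73. The fatty acid count, 7, became 0, 0 and 4, and 1 to 8; the astrocyte count, 4, became 0, 0 and 2, and 0 to 5. In males the count of all genes, 0, became 44 with DESeq2 and 1 without SI males 25, 33 and 39, and lay between 0 and 2414 with a male left out (1 without SI male 8), and that of the set between 0 and 8. The interaction count lay between 0 and 1. The count for GH females against GH males, 4 beside 6.31% of all genes, was 7 with DESeq2 (11.8%) and 10 with the trend removed (13.0%). It was 2 without a filter (3.70%). It became 0 without surrogate variables (0.0976%), with the digit (0.0549%) and without SI males 25, 33 and 39 (0.901%). With a mouse left out it ran from 0 to 9, and was 9 without SI male 8 (14.2%). Fdps in males turned from 0.21 to -0.04 without those 3 males. Medians of the synthesis genes ran from -0.11 to -0.04 in females and from -0.00 to 0.07 in males with a mouse left out. Those of the uptake and efflux genes ran from 0.00 to 0.04 and from -0.21 to 0.01. Without surrogate variables the synthesis medians were -0.09 in females and 0.11 in males. The uptake and efflux medians were then 0.03 and -0.34. The cause of these shifts was not tested. No paired analysis was possible because the replicate numbers are animal numbers and no number is shared between groups. Depth limits Nr1h3 most, the gene with the fewest counts.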
